A study of Mus musculus with 14 samples.

Results

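The genes described here are known from lymphocytes and were measured in the mouse aortic valve. They are 29 genes of T cells, natural killer (NK) cells and B cells, taken by name from a list and found among the 56941 genes of the count table. RNA was sequenced in bulk from micro-dissected aortic valve leaflets of 14 male C57BL/6J mice, aged 8 weeks at the start, and each mouse gave 1 library. All mice, controls included, ate a Western diet that raises cholesterol. Of the 4 groups, Ctrl (n = 4) was untreated, LY (n = 2) received LY272015, AngII (n = 4) received angiotensin II, and AngII+LY (n = 4) received both. A pump under the skin delivered 1000 ng/kg/min of angiotensin II over 28 days. LY272015 blocks HTR2B, a receptor for serotonin, and its dose was 3 mg/kg by injection.

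The sources differ on a few points of this design. The injections are given as every other day in one place and as weekly pairs in another. Removal of the pump and a further 48 hours of survival are stated for all infused mice in one place and for a subset in another, and 4 dosed samples carry compound numbers other than LY272015. The design text gives 4 LY mice, of which 2 were analysed here. Library totals ran from 20990655 to 73128220 counts, and the smallest library was AngII replicate 4. A difference in bulk tissue can come from fewer cells of a type or from less of the RNA in each cell, and these cannot be told apart here.

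T cells recognise antigen through a receptor that signals through the CD3 chains and the kinases LCK and ZAP70, while the co-receptors CD4 and CD8 divide them into helper and cytotoxic cells. NK cells and cytotoxic T cells kill through granules that hold perforin and granzymes. B cells carry the CD79 chains with surface immunoglobulin and can mature into plasma cells, which secrete antibody. The healthy valve leaflet is built of interstitial and endothelial cells with few resident leukocytes, most of them macrophages and dendritic cells, and lymphocytes are known to accumulate in stenotic valves.

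Transcripts of the 29 genes were present in these leaflet samples at low levels, and the cells they came from were not identified. Levels are given as CPM, the counts per 1000000 counts of a library whose size was scaled by the TMM method. Ighm, the heavy chain of immunoglobulin M, had by far the highest mean level, 55.1 CPM over the 14 libraries, and made up 39.6% to 62.7% of the summed level of the 29 genes in each library. Tcf7 followed at 11.3 CPM and Jchain, the joining chain of secreted IgM and IgA, at 9.36 CPM. Per kilobase of exon, which allows genes to be compared, Ighm stood at 29.2 CPM, Jchain at 3.72 and Tcf7 at 2.93. The other 26 genes lay at or below 1.79 CPM per kilobase, a level reached by Cd79b, and the lowest was Cd6 with 0.0213.

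Detection differed between libraries. Of the 29 genes, 14 had a count in all 14 libraries and 15 were at 0 in at least 1. The Ctrl libraries held a count for 29, 25, 28 and 28 of them, and the LY libraries for 26 and 28. The AngII libraries held 25, 25, 26 and 21, and the AngII+LY libraries 22, 22, 24 and 24. Every AngII+LY library thus held fewer of the genes than every Ctrl and LY library. The numbers expected if each library were thinned to the smallest total were 24.5 to 28.1 in Ctrl, 24.9 and 27.4 in LY. They were 21.0 to 24.8 in AngII, and AngII+LY gave 21.4 to 23.2. At this depth all 4 AngII+LY libraries were still below all 6 libraries without angiotensin II. Detection was not counted over all genes or over other genes of low level. Whether the lower number is particular to lymphocyte genes was therefore not tested.

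**Figure D1:**
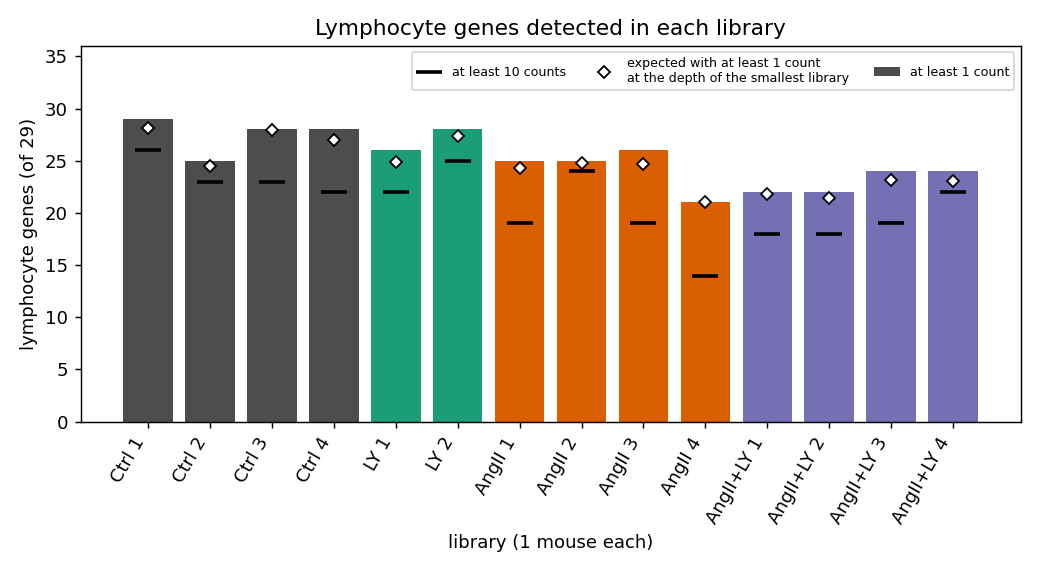
Number of the 29 lymphocyte genes (vertical axis) with at least 1 count (bars) in each of the 14 libraries, with the number at 10 or more counts (dashes) and the number expected at the depth of the smallest library (diamonds). The AngII+LY bars reach 22 to 24 and the Ctrl bars 25 to 29.

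**Figure D2:**
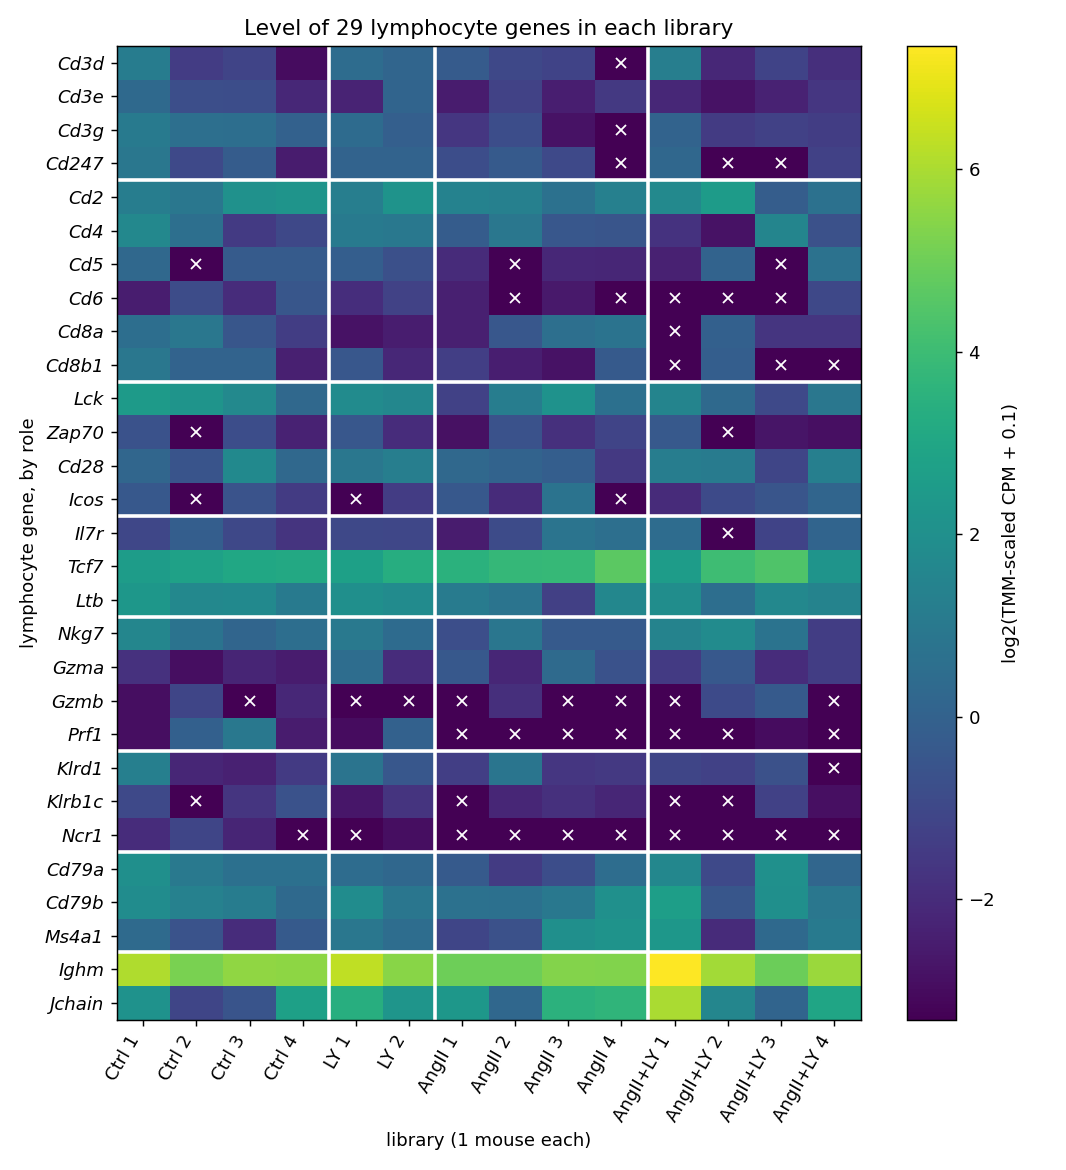
Level of each lymphocyte gene (rows, in the order of their roles) in each library (columns), as log2(CPM + 0.1), with crosses where the count was 0. Ighm is the brightest row throughout, and the crosses of Prf1 and Ncr1 fill nearly all of the columns of the 8 mice given angiotensin II.

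The first comparison asked what angiotensin II did, and set AngII against Ctrl. A mean count of 10 or more was required for a test (edgeR, quasi-likelihood), and 26 of the 29 passed this filter, the exceptions being Gzmb, Klrb1c and Ncr1. The mean was taken over all 14 libraries: in AngII alone, 5 of the 26 (Cd3e, Cd5, Cd6, Cd8b1, Prf1) averaged under 10 counts, and in Ctrl alone Gzma did. These genes passed through the groups where they were higher, so the counts and medians over the genes tested are given as a description. To be called, a gene needed an adjusted p (Benjamini-Hochberg) under 0.05 and a change of more than 0.5 on the log2 scale in either direction. No lymphocyte gene was called, as was the case for the whole table, where 0% of 19145 genes were called. At an unadjusted p under 0.05, 2 lymphocyte genes were higher (Tcf7, Gzma) and 3 lower (Cd3g, Prf1, Cd79a) in AngII, while 13.4% of all genes tested were higher and 11.7% lower. The estimates leaned downward, with 19 genes lower and 7 higher and a median log2 fold change of -0.65, against -0.06 over all genes tested. Ctrl replicate 1 carried much of this: without it the median was -0.16, with 14 genes lower and 12 higher.

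The CD3 chains assemble with the antigen receptor and carry its signal into the T cell. Cd3g, which encodes the gamma chain, was measured at 1.92, 1.38, 1.33 and 0.899 CPM in the Ctrl mice and at 0.225, 0.470, 0.0436 and 0 CPM in the AngII mice. The groups did not overlap, and the mean was 1.38 CPM against 0.185. The log2 fold change of Cd3g was -2.81 ± 0.93 (SE), and its adjusted p was 0.0971 with edgeR, from 0.0491 to 0.283 over 23 other settings, of which only limma called the gene. Without any overlap, 3 lymphocyte genes were lower and 1 was higher in AngII, when 7.56% of all genes were lower and 7.46% higher in the same sense.

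Cd3g lies on chromosome 9 (GRCm39, 44880870 to 44891735, minus strand) beside Cd3d (44893083 to 44899173, plus strand), and the 2 genes point away from each other with 1347 bases between them. The 160 bases before their RefSeq starts are shown because Cd3g had the smallest adjusted p of the CD3 genes and Cd3d is its neighbour. They are written 5′ to 3′ on the strand of each gene in GRCm38.p6, the build of the RefSeq promoter table, at chr9:44980432-44980591 on the minus strand for Cd3g and at chr9:44981626-44981785 on the plus strand for Cd3d. Capitals mark 3 short motifs searched on both strands: AGGAAG (bound by ETS factors), TGTGGT (RUNX) and CTTTGA (TCF and LEF). The stretch of Cd3g holds none of them, and that of Cd3d holds CTTTGA once on each strand.
Cd3g: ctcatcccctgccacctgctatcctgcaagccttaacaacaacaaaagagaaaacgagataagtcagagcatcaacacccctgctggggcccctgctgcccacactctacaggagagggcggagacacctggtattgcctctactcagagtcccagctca
Cd3d: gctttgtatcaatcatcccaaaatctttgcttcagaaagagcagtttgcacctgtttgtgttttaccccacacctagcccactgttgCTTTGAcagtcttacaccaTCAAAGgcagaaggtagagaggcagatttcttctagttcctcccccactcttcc

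Cd3d, the delta chain, was measured at 2.11, 0.272, 0.353 and 0.0261 CPM in Ctrl and at 0.732, 0.396, 0.349 and 0 CPM in AngII. Here the groups overlapped, since only Ctrl replicate 1 stood above all of the AngII mice. On the log2 scale Cd3d differed by -0.87 ± 1.26. Cd3e, the epsilon chain, had 1.15, 0.484, 0.471 and 0.130 CPM in Ctrl and 0.0751, 0.334, 0.0873 and 0.240 CPM in AngII, and its log2 fold change was -1.59 ± 0.97 (adjusted p = 0.325, edgeR). Cd247, the zeta chain, ran from 0.0782 to 1.78 CPM in Ctrl and from 0 to 0.705 CPM in AngII. Of its exon sequence 51.1% overlaps that of Pou2f1 on the opposite strand, and the strand setting of the counting was not given, so its counts may include reads of that gene.

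Summed over the 4 CD3 genes, the level was 6.96, 2.54, 2.92 and 1.13 CPM in Ctrl and 1.50, 1.90, 0.895 and 0.240 CPM in AngII. The group mean was 2.99 times lower in AngII, but the lowest Ctrl mouse lay within the AngII range. Without Ctrl replicate 1 it was 1.94 times lower. In LY the sum was 3.57 and 3.80 CPM. Over the 14 libraries the 4 genes followed each other with Pearson correlations of 0.30 to 0.82 on the log2(CPM + 0.1) scale, closest for Cd3d and Cd247. All 14 libraries share the contrast of the groups, and many of these counts are small.

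The next group holds co-receptors and surface molecules: Cd4 and the 2 CD8 chains, the adhesion receptor Cd2, and Cd5 and Cd6, related receptors that damp signalling. All 6 estimates were below 0 in AngII, none with an unadjusted p under 0.05. Cd6 was measured at 0.0788, 0.454, 0.157 and 0.625 CPM in Ctrl and 0.0939, 0, 0.0655 and 0 CPM in AngII, with a log2 fold change of -2.90 ± 1.66. Cd5 had 1.13, 0, 0.726 and 0.743 CPM in Ctrl and 0.150, 0, 0.131 and 0.120 CPM in AngII, with a log2 fold change of -2.71 ± 1.58. In 3 of 4 Ctrl mice Cd5 was thus above every AngII mouse, and the remaining Ctrl mouse had no count. Cd8b1 stood at -1.76 ± 1.59, Cd2 at -0.50 ± 0.56, Cd4 at -0.40 ± 1.02 and Cd8a at -0.15 ± 1.09 on the same log2 scale.

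The sum over these 6 genes was 9.56, 6.37, 6.81 and 6.61 CPM in Ctrl and 4.00, 4.95, 3.73 and 5.41 CPM in AngII. As a sum the groups did not overlap, although each gene taken alone did. The mean was 1.62 times lower in AngII. Of the 8 sums by role, that of the naive or memory genes (Il7r, Tcf7, Ltb) also did not overlap, in the opposite direction. It ran from 10.6 to 11.8 CPM in Ctrl and from 13.2 to 29.7 CPM in AngII, with a mean 1.68 times higher. Most of this sum was Tcf7, with a mean of 7.33 of 11.1 CPM in Ctrl and 16.0 of 18.6 CPM in AngII. Ltb had a lower mean in AngII (1.72 CPM against 3.29 in Ctrl) and Il7r a higher one. The remaining sums overlapped, and the share of like sums over all genes that separate was not computed. Single genes varied within a group. Cd4 ran from 0.255 to 3.04 CPM in Ctrl, and Cd8a from 0.0939 to 1.56 CPM in AngII.

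Among the genes of T cell signalling and costimulation, Lck, the kinase that starts receptor signalling, had 5.58, 4.51, 3.16 and 1.13 CPM in Ctrl and 0.319, 2.18, 4.28 and 1.44 CPM in AngII. The 2 groups overlapped, and the log2 fold change was -0.80 ± 0.72. Zap70, the kinase recruited to the CD3 chains, had a log2 fold change of 0.01 ± 1.46. Cd28, the main costimulatory receptor, stood at -0.92 ± 0.69, and Icos, a related receptor of activated T cells, at 0.68 ± 1.44. None of the 4 reached an unadjusted p under 0.05.

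Tcf7 had an estimate above 0, when those of the 4 CD3 genes were below it. It encodes TCF-1, a factor of naive and memory T cells that also serves Wnt signalling outside the lymphoid lineage. Its level was 5.83, 6.85, 8.12 and 8.51 CPM in Ctrl and 11.1, 13.6, 13.9 and 25.4 CPM in AngII. Every AngII mouse was above every Ctrl mouse. The log2 fold change was 1.12 ± 0.44, with an adjusted p of 0.137 in edgeR and from 0.0482 to 0.380 over 24 other settings, of which only DESeq2 called the gene. In LY, Tcf7 stood at 6.69 and 9.90 CPM. In AngII+LY the mice separated, with 5.88 and 4.52 CPM in 2 of them and 16.3 and 21.0 CPM in the other 2.

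Il7r, the interleukin-7 receptor of resting T cells, had 0.378, 0.802, 0.392 and 0.208 CPM in Ctrl and 0.0751, 0.445, 1.61 and 1.38 CPM in AngII, with a log2 fold change of 0.97 ± 1.14. Ltb, the lymphotoxin beta chain through which lymphocytes signal to stromal cells, had 4.91, 3.06, 3.26 and 1.92 CPM in Ctrl and 2.05, 1.60, 0.305 and 2.94 CPM in AngII, with a log2 fold change of -0.94 ± 0.57. Both genes overlapped between the groups. For Ltb, 22.9% of the exon sequence is shared with a long noncoding RNA on the opposite strand.

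Perforin and the NK receptor NKp46 were detected almost only in mice without angiotensin II. Prf1, which encodes perforin, the pore-forming protein of cytotoxic granules, had 2, 58, 94 and 6 counts in the Ctrl libraries and 2 and 56 in the LY libraries. In the AngII libraries it had no count, and in the AngII+LY libraries it had 0, 0, 1 and 0 counts. It was therefore detected in all 6 libraries without angiotensin II, with 218 counts in all, and in 1 of 8 with it. Against the level that 3 counts over the AngII group would give (0.0153 CPM), the Ctrl mean of 0.708 CPM was 46.4-fold higher. Without Ctrl replicate 3 it was 21.6-fold higher. These are lower bounds only if each count is a separate fragment. If both mates of a pair were counted, the bounds are smaller. Prf1 passed the filter, with a mean of 15.6 counts, only through the Ctrl and LY libraries, so its p-values are not independent of the difference between the groups. The adjusted p was 0.0665 for AngII against Ctrl and 0.288 for AngII+LY against Ctrl (edgeR), with a range of 0.0535 to 0.283 over 22 other settings for the first. The Ctrl counts themselves were uneven, since Ctrl replicates 2 and 3 held nearly all of them.

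Ncr1, which encodes NKp46, an activating receptor of NK cells, had 10, 24, 6 and 0 counts in Ctrl, 0 and 2 in LY, and none in any of the 8 AngII and AngII+LY libraries. Its level was too low for the test across genes. An exact two-sided permutation test of mean log2(CPM + 0.1) in 4 Ctrl against 4 AngII mice gave p = 0.143. The smallest p this design allows is 0.0286. The Ctrl mean of 0.160 CPM was 10.5-fold above the floor of 3 counts in AngII and 9.70-fold above that in AngII+LY. These bounds too would be smaller if both mates were counted. Without Ctrl replicate 2, which held 24 counts, these bounds were 6.05-fold and 5.59-fold.

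The 160 bases before the starts of these 2 genes are shown because both genes went nearly undetected under angiotensin II. They lie at chr10:61297676-61297835 (Prf1) and chr7:4337555-4337714 (Ncr1), both on the plus strand of GRCm38.p6, and capitals mark the motifs named above. Prf1 holds AGGAAG on its own strand and TGTGGT on the other, and Ncr1 holds TGTGGT on the other strand.
Prf1: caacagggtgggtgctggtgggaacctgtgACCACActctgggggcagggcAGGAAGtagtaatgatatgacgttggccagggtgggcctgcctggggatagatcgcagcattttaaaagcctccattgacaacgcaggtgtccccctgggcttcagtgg
Ncr1: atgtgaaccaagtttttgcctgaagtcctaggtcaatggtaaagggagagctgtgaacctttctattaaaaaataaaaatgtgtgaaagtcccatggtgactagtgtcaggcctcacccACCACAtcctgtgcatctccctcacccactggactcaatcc

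The RefSeq promoter table matched 19 of the 29 genes. In the 250 bases before a start, TGTGGT occurred in 8 of these 19 (Gzma, Gzmb, Klrb1c, Lck, Ncr1, Nkg7, Prf1, Zap70) and in 14.05% of all 32851 promoters. AGGAAG occurred in 12 of the 19 and in 29.48% of all promoters. CTTTGA occurred in Cd3d and Zap70, and in 13.83% of all promoters. The octamer ATGCAAAT, known from immunoglobulin promoters, occurred in none of the 19 and in 1.60% of all. Ighm, Cd79b and Ms4a1 were not among the 19, so no motif was searched in them. Among the 19, a gene with several starts was counted once, with a motif before any of them. The share of all promoters was counted per start, so the 2 sides are not alike and the 19 are favoured. A match of letters does not show that a factor was bound.

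Of the other granule genes, Gzma had an estimate above 0 and Nkg7 one below 0. Gzma, granzyme A, had 0.189, 0.0303, 0.118 and 0.0782 CPM in Ctrl and 0.676, 0.124, 1.18 and 0.541 CPM in AngII. In 3 of 4 AngII mice it was above every Ctrl mouse. For Gzma the log2 fold change was 2.58 ± 0.98, with an adjusted p of 0.128 (edgeR) that ran from 0.0896 to 0.420 over 23 other settings. The counts behind it were low, between 2 and 12 in Ctrl and between 9 and 54 in AngII. The LY mice had 1.32 and 0.159 CPM, and AngII+LY 0.249, 0.666, 0.157 and 0.278 CPM.

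Nkg7, a protein of granule release, had 2.90, 1.56, 1.02 and 1.34 CPM in Ctrl and 0.488, 1.73, 0.720 and 0.721 CPM in AngII, with a log2 fold change of -0.89 ± 0.68. Gzmb, granzyme B, was at 0 in 8 of the 14 libraries and reached 27 counts at most. Klrd1, which encodes the CD94 receptor chain, ranged from 0.0981 to 2.32 CPM in Ctrl and from 0.218 to 1.66 CPM in AngII, with a log2 fold change of -0.19 ± 1.24. Klrb1c, which encodes NK1.1, had 26, 0, 11 and 42 counts in Ctrl and 0, 10, 8 and 2 in AngII. Its exons share 12.9% of their length with another gene model on the same strand, so these counts are uncertain.

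**Figure D3:**
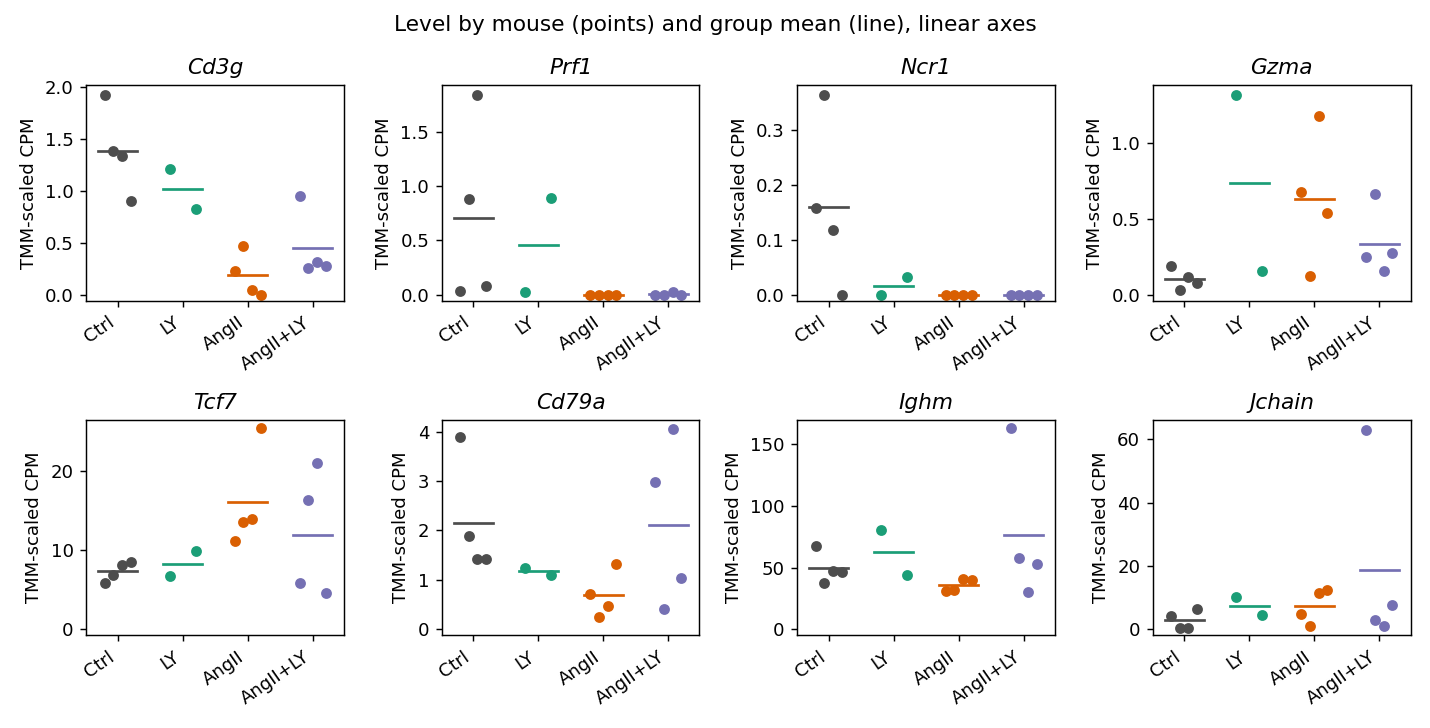
Level of 8 lymphocyte genes in CPM (linear axes, 1 panel per gene) for each mouse (points) in the 4 groups, with the group mean (line). Cd3g, Prf1 and Cd79a of the AngII mice lie below those of every Ctrl mouse, Tcf7 lies above, and AngII+LY replicate 1 stands far above all others in Ighm and Jchain.

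Of the 5 B cell and immunoglobulin genes among the 29, Cd79a alone had no overlap between the AngII and the Ctrl mice. CD79A and CD79B form the signalling part of the B cell receptor. Cd79a had 3.88, 1.88, 1.43 and 1.42 CPM in Ctrl and 0.713, 0.260, 0.480 and 1.32 CPM in AngII. Every AngII mouse was below every Ctrl mouse, with a narrow gap between the nearest of them. The LY mice, which received no angiotensin II, stood at 1.25 and 1.10 CPM and were also below every Ctrl mouse. For Cd79a the log2 fold change was -1.66 ± 0.72, with an adjusted p of 0.170 (edgeR) that ran from 0.0889 to 0.628 over 23 other settings. The 160 bases before its start, at chr7:24897337-24897496 on the plus strand of GRCm38.p6, hold AGGAAG once, as the capitals show.
Cd79a: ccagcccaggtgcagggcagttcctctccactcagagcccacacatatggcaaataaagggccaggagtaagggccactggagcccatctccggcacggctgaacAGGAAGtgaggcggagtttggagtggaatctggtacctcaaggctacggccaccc

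Its partner Cd79b had 3.56, 2.45, 2.12 and 1.15 CPM in Ctrl and 1.48, 1.45, 1.85 and 4.03 CPM in AngII, with a log2 fold change of -0.09 ± 0.63. Ms4a1, which encodes the B cell surface protein CD20, had 1.18, 0.560, 0.157 and 0.717 CPM in Ctrl and 0.375, 0.532, 3.88 and 4.33 CPM in AngII. Its estimate was thus above 0 (1.79 ± 0.98, adjusted p = 0.271, edgeR), opposite to that of Cd79a, and it came from AngII replicates 3 and 4. The sum of the 3 B cell genes was 5.12 ± 2.43 CPM (SD) in Ctrl and 5.18 ± 3.50 CPM in AngII.

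Ighm had 67.2, 37.2, 47.3 and 46.4 CPM in Ctrl and 31.4, 31.8, 41.1 and 40.1 CPM in AngII. The Ctrl and AngII mice overlapped, and the log2 fold change was -0.46 ± 0.40. Jchain was far more variable, with 4.25, 0.363, 0.589 and 6.51 CPM in Ctrl and 4.97, 1.08, 11.4 and 12.4 CPM in AngII, and its log2 fold change was 1.34 ± 1.15. The Jchain level spanned more than the contrast within Ctrl alone.

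**Figure D4:**
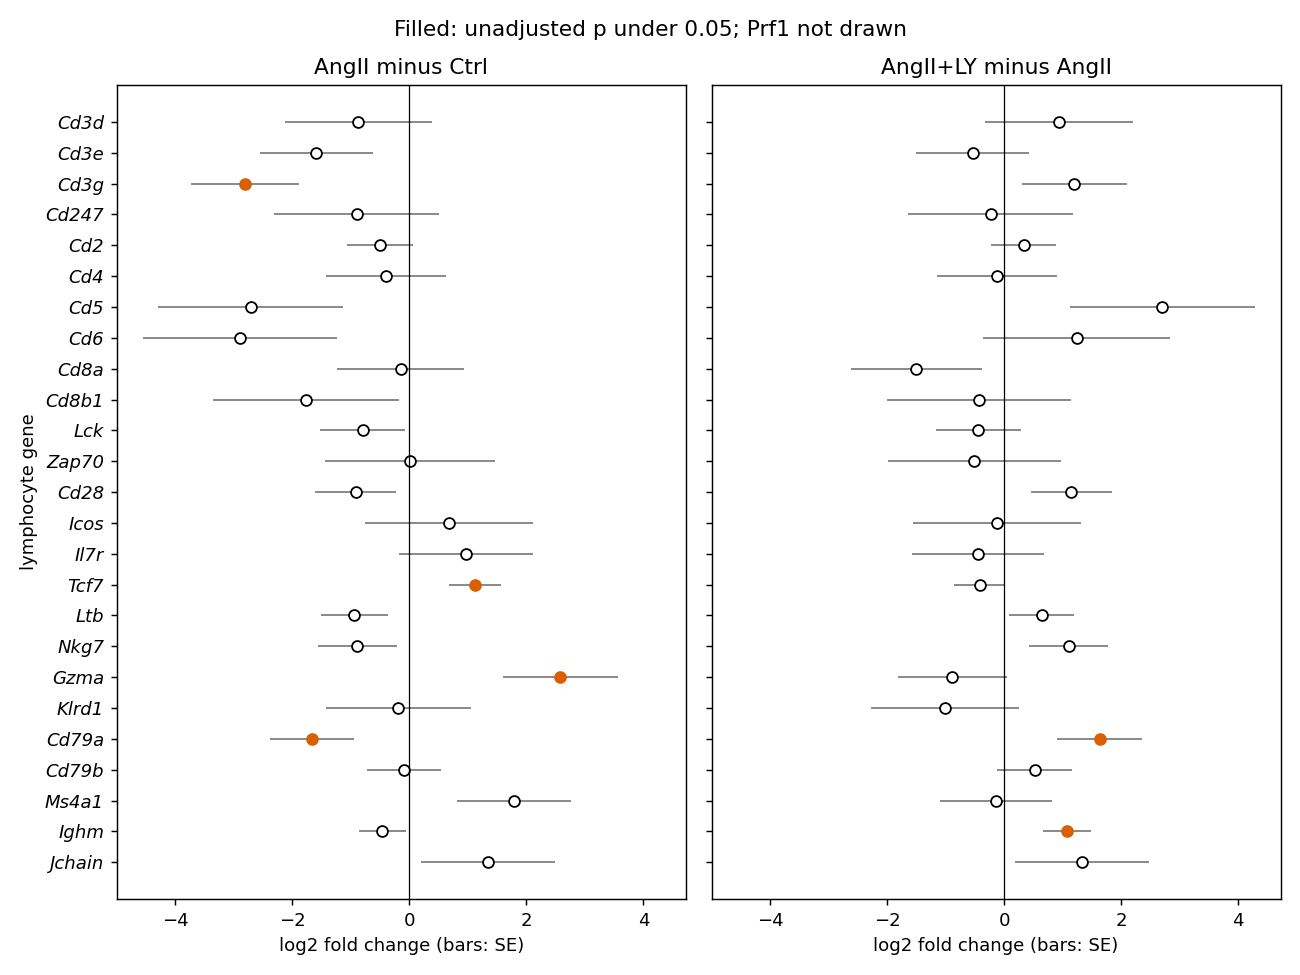
Log2 fold change with its SE for 25 of the 26 lymphocyte genes tested, AngII minus Ctrl (left) and AngII+LY minus AngII (right), with filled points at an unadjusted p under 0.05. Prf1 is left out because it had no count in AngII. On the left, Cd3g and Cd79a are filled below 0 and Tcf7 and Gzma above it, and on the right Cd79a and Ighm are filled above 0.

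The second comparison asked what LY272015 did in mice given angiotensin II, and set AngII+LY against AngII. No lymphocyte gene was called, with 0% of all genes called. At an unadjusted p under 0.05, 2 lymphocyte genes were higher in AngII+LY (Ighm, Cd79a) and none lower, against 10.1% and 12.4% of all genes. Estimates were split evenly, 13 higher and 13 lower, with a median log2 fold change of 0.10, against -0.02 over all genes. No lymphocyte gene separated the groups without overlap, which 5.45% of all genes did upward and 5.66% downward. Both comparisons use the AngII mice, so a gene low in these mice tends to be low in the first and high in the second.

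Cd79a stood at 2.97, 0.408, 4.05 and 1.04 CPM in AngII+LY. This was above every AngII mouse in 2 of 4 animals, and the log2 fold change was 1.63 ± 0.72, with an adjusted p of 0.200 (edgeR). Ighm stood at 163, 58.1, 30.6 and 53.0 CPM, above every AngII mouse in 3 of 4 animals. Its log2 fold change was 1.08 ± 0.41, with an adjusted p of 0.142 that ran from 0.0539 to 0.523 over 24 other settings. Without AngII+LY replicate 1, the log2 fold change of Ighm was 0.39 and no lymphocyte gene reached an unadjusted p under 0.05.

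AngII+LY replicate 1 was set apart by antibody transcripts. It held 6538 counts of Ighm and 2532 of Jchain, and the summed level of both was 226 CPM, when the other 3 AngII+LY mice had 61.0, 31.6 and 60.6 CPM. Jchain was 63.1 CPM in this mouse and between 0.363 and 12.4 CPM in the other 13. The light chain constant genes Igkc, Iglc1 and Iglc2, which are not among the 29, summed to 160 CPM in it and to 5.54 to 35.9 CPM elsewhere. The same mouse had the highest sum of the 3 B cell genes (14.2 CPM), and within its group the highest sum of the CD3 genes (4.41 CPM, against 0.430, 0.758 and 0.991 CPM).

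Cd3g was 0.947, 0.258, 0.314 and 0.278 CPM in AngII+LY, so 3 of 4 mice lay within the AngII range and replicate 1 above it. Against AngII the log2 fold change of Cd3g was 1.20 ± 0.90. The co-receptor sum was 3.47, 8.36, 3.76 and 4.14 CPM, with a mean of 4.93 against 4.52 CPM in AngII. Cd5 showed the largest estimate of the comparison, 2.70 ± 1.58, and ranged from 0 to 1.53 CPM in AngII+LY. Cd8b1 was detected in 1 of 4 AngII+LY mice, and Cd6 in 1 of 4.

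The third comparison, AngII+LY against Ctrl, shares its groups with the first 2. It called no lymphocyte gene, with 0% of all genes called. At an unadjusted p under 0.05, Jchain was higher and Prf1 and Cd3e were lower, against 4.89% of all genes higher and 6.14% lower. Prf1 and Cd3e averaged under 10 counts in AngII+LY, as did Cd6, Cd8b1 and Zap70. They passed the filter through groups where they were higher, so their p-values are not independent of the difference. Without overlap, Prf1 was lower and no lymphocyte gene was higher, when 4.89% of all genes were lower and 3.27% higher. Cd3e had 0.125, 0.0430, 0.105 and 0.226 CPM in AngII+LY and a log2 fold change of -2.14 ± 0.99 (adjusted p = 0.450, edgeR). The log2 fold change of Jchain was 2.67 ± 1.20 (adjusted p = 0.434) and rested on AngII+LY replicate 1, without which the log2 fold change of Jchain was 0.39. The median over the 26 genes was -0.10, and without Ctrl replicate 1 it was 0.39.

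The last comparison, LY against Ctrl, had 2 mice in 1 group. No lymphocyte gene was called, with 0% of all genes called, and all adjusted p were 1. At an unadjusted p under 0.05, Gzma was higher and Cd8a lower, against 0.627% of all genes higher and 0.763% lower. Cd8a averaged under 10 counts in LY, and Gzma in Ctrl. Both passed the filter through other groups, so these p-values are given as a description. Gzma rested on 1 LY mouse. Cd8a had 3 and 5 counts in the LY libraries and 85, 118, 32 and 22 in Ctrl, and the log2 fold change was -4.01 ± 1.68. Its partner Cd8b1 had 46 and 8 counts in LY and 113, 64, 48 and 7 in Ctrl, and overlapped. An exact two-sided permutation test of 2 against 4 mice cannot give a p below 0.0667.

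The effect of LY272015 in infused mice was also compared with its effect in untreated mice, in the same edgeR fit. No lymphocyte gene differed at an adjusted p under 0.05. The smallest unadjusted p were 0.0216 for Gzma (difference of log2 fold changes -3.71 ± 1.43, adjusted p = 0.319) and 0.0484 for Cd79a (2.51 ± 1.16, adjusted p = 0.373). For Gzma the LY replicate with 95 counts weighs on this value. For Cd79a the value includes a lower level in LY than in Ctrl (log2 fold change -0.87 ± 0.88).

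Other leukocyte genes were set beside the 29. In AngII against Ctrl, 13 of 16 macrophage and myeloid genes were lower, 7 of them at an unadjusted p under 0.05, with a median log2 fold change of -1.02. The complement genes C1qa, C1qb and C1qc of tissue macrophages were among these and did not overlap between groups, with log2 fold changes of -1.86, -1.82 and -1.59. Of 12 pan-leukocyte genes 10 were lower, 4 at that p, with a median of -0.61, and Coro1a, an actin regulator of leukocytes, stood at -1.53 ± 0.32. Summed macrophage levels ran from 548 to 2074 CPM in Ctrl and from 501 to 929 CPM in AngII, and the part of these cells in the lymphocyte values was not tested.

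Further lymphocyte genes were counted in the same way. Of 21 other T cell genes tested in AngII against Ctrl, 12 were lower and 9 higher, with a median of -0.54. Of 11 other NK and cytotoxic genes 7 were lower, with a median of -0.37, and of 22 other B cell and plasma cell genes 14 were lower, with a median of -0.42. In each of these lists at most 1 gene was higher and at most 3 were lower at an unadjusted p under 0.05. Trbc2, a constant gene of the T cell receptor, had 3.65, 2.89, 2.82 and 1.64 CPM in Ctrl and 1.41, 1.50, 3.99 and 2.40 CPM in AngII, with a log2 fold change of -0.24 ± 0.56. Ccl5, a chemokine of T and NK cells, stood at -1.16 ± 0.52 (adjusted p = 0.183, edgeR), and Cd226 reached 359 CPM in AngII replicate 4, against 2.02 to 43.7 CPM in the other 13 libraries. The summed level of the other T cell genes was 136 CPM in AngII and 43.9 CPM in Ctrl, and without AngII replicate 4 the AngII mean was 51.6 CPM. Without overlap, 3 of the other T cell genes were lower in AngII and 1 of the other B cell genes was higher. None of the other NK and cytotoxic genes separated. Over all genes tested, 7.56% were lower and 7.46% higher in this sense. The B cell gene was Tnfrsf13c, the receptor for the survival factor BAFF. It had 4.28, 4.43, 4.10 and 4.35 CPM in Ctrl and 12.1, 10.7, 9.73 and 7.15 CPM in AngII, with a log2 fold change of 1.21 ± 0.63 (adjusted p = 0.243, edgeR).

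Tissue around the leaflet moved with the groups as well. All 8 adipocyte genes were lower in AngII than in Ctrl, with a median of -1.58, and Ucp1 of brown fat stood at -2.88 ± 0.52. The 10 cardiomyocyte genes were all higher in AngII+LY than in AngII, with a median of 1.27, and their sum ran from 6335 to 16511 CPM in AngII and from 15756 to 43650 CPM in AngII+LY. Erythroid genes summed to 8305 to 46551 CPM over the 14 libraries, although the hearts had been perfused with saline. The 11 thymocyte genes summed to 8.25 to 21.2 CPM. The AngII+LY mice (8.25 to 14.7 CPM) lay below the AngII mice (16.0 to 21.2 CPM). Cd1d1 and Ccl25, which are also expressed outside the thymus, had counts in all 14 libraries (80 to 726 and 139 to 687). Foxn1, the factor of thymic epithelium, had no count, Ptcra had 6 counts in 1 library, and Dntt ranged from 0 to 104 counts, the highest in AngII replicate 4.

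The genes of valve interstitial cells, the main resident cells of the leaflet, moved with the second comparison. All 9 were lower in AngII+LY than in AngII, 5 of them at an unadjusted p under 0.05 and 4 without overlap, with a median log2 fold change of -0.82. Their sum ran from 5514 to 9577 CPM in AngII+LY and from 14443 to 16393 CPM in AngII, without overlap. All 9 were also lower in AngII+LY than in Ctrl, with a median of -0.86, while in AngII against Ctrl the median was 0.07. The part of fat, muscle, blood, thymus and interstitial cells in the lymphocyte values was not tested.

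**Figure D5:**
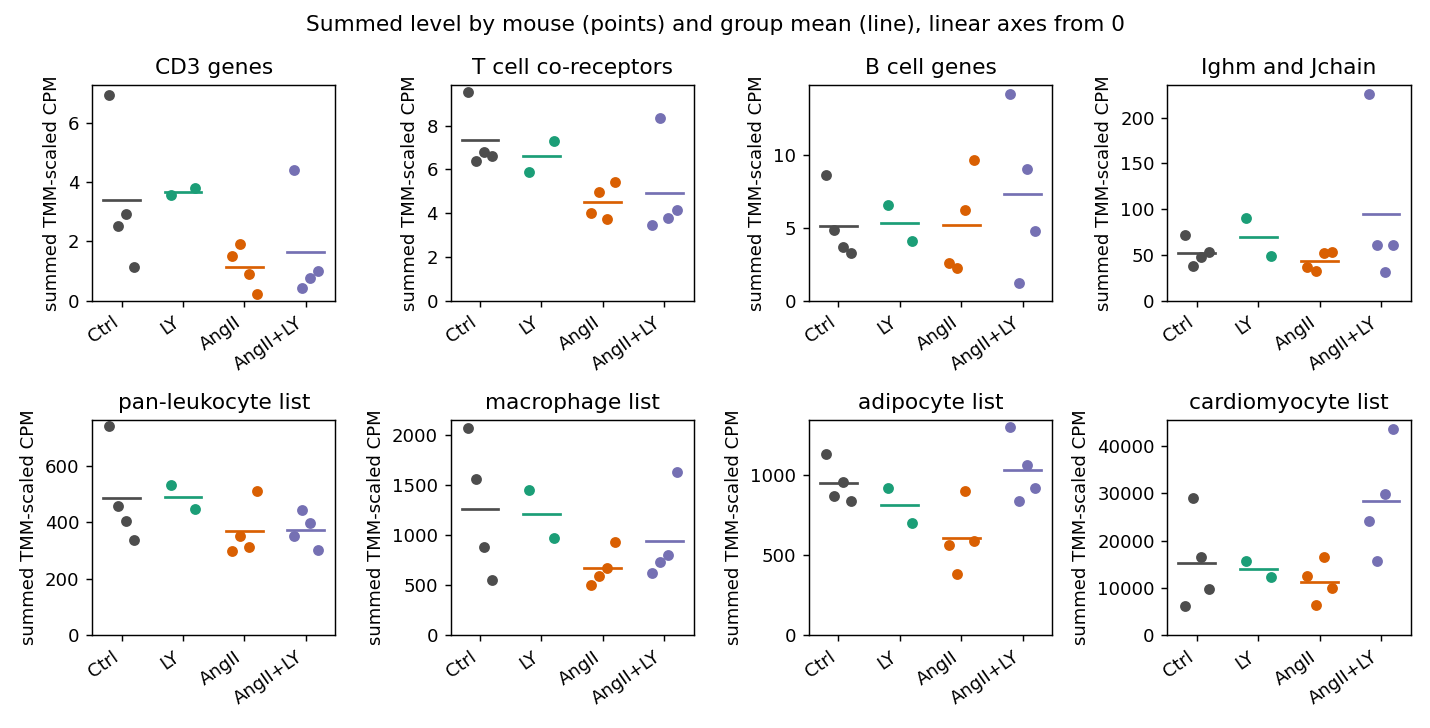
Summed level in CPM (linear axes from 0) for each mouse (points) with the group mean (line), over lymphocyte genes by role in the upper row and over lists of other cell types in the lower row. The co-receptor sum of the AngII mice (3.73 to 5.41 CPM) lies below that of the Ctrl mice (6.37 to 9.56 CPM), and the immunoglobulin panel is led by AngII+LY replicate 1 at 226 CPM.

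GC content moved with the comparison. Over 19043 genes, the log2 fold change of AngII against Ctrl fell with rising GC content, with a Spearman correlation across genes of -0.545, and that of AngII+LY against AngII rose with it (0.443). The 26 lymphocyte genes had a median GC content of 49.3%, near the 48.6% of all genes. After a correction for GC content their median in AngII against Ctrl was -0.22, against -0.00 over all genes, and 5 of them had an unadjusted p under 0.05, as did 2658 of the 19145 genes. Of the 5 genes at that p before the correction, Cd3g, at 40.7% GC, and Tcf7, at 55.2%, ran against this trend. Prf1 (53.5%) and Cd79a (55.2%), both lower in AngII, and Gzma (45.2%), which was higher, went with it. The part of GC content in the values of these genes was not tested.

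The genes most like the CD3 genes were none of the 29. By Pearson correlation over the 14 libraries of log2(CPM + 0.1) with the mean of the 4 CD3 genes, the 10 closest were Cpz (0.95), Cad (0.89), Gstt3 and F730043M19Rik (both 0.88), Gm56897 (0.88), Wdr81 (0.87), Phgdh (0.85), and Gm56859, Tmem52 and Adig (each 0.84). Among the lymphocyte genes Lck came closest, with 0.60 and rank 878 of 19141, ahead of Ltb (0.51) and Zap70 (0.50). Tcf7 was among the least alike, with -0.69. All 14 libraries share the group contrast and differ in depth, and with a pseudocount of 1 only 4 of the same 10 genes were left.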

How the data were processed

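Bulk RNA-seq was performed on aortic valve leaflets of 14 mice. Upstream, the authors ran FastQC 0.12.1 before and after trimming, used HISAT2 for alignment to GRCm39, and obtained gene counts from featureCounts. The counts the authors deposited are whole numbers that were not normalized, although the table is named as normalized. Values of 2 (13373) outnumbered values of 1 (10072), a pattern that counting both mates of a pair would give. Multi-mapped reads and strand settings are not given in the sources used here.

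Groups were taken from the sample titles, with separate mice as replicates. Gene symbols came from GENCODE vM39 (618 IDs were not found in it). The 19145 genes whose counts averaged 10 or more were tested with edgeR 4.0.16 in R 4.3.3 by the quasi-likelihood method, with TMM scaling and 1 fit of all 4 groups, and Benjamini-Hochberg adjustment ran over all genes tested. Levels are TMM-scaled CPM. Promoter sequences are those of RefSeq on GRCm38.p6, and overlaps with other exons were computed on GRCm39. The floor for a gene without counts was 3 counts over the group. Intervals were not computed for levels, and floors cover counting error only. The floor is too low if both mates of a pair were counted.

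The 29 genes and the other lists were chosen with earlier results of these data known. By the rule for named genes, all 29 were named, from each other list up to 4 genes of highest mean count, and for likeness the 10 genes with the highest correlation to the CD3 genes. Exceptions, chosen after their values were seen, were Iglc1, Iglc2, Foxn1, Ptcra, Dntt and Tnfrsf13c. Summed levels and bounds without single mice were added after the data were seen. The lists not described in the report, of 10 lymphoid stroma and chemokine genes and 8 endothelial genes, had medians of -0.75 and 0.22 in AngII against Ctrl, -0.03 and -0.05 in AngII+LY against AngII, -0.38 and 0.13 in AngII+LY against Ctrl, and 0.09 and 0.07 in LY against Ctrl. The script was tested on simulated data. Alternatives were DESeq2 1.42.0, DESeq2 size factors, limma 3.58.1 on log2(CPM + 0.1), no filter, and a minimum mean count of 100. Others were a fit of only the 2 groups compared, 2 other quasi-dispersion settings, a replicate block, a loess correction for GC content, and block and correction together. Halved counts and the omission of single mice from each group of 4 completed them. The legacy quasi-dispersion setting gave the same numbers of genes and the same medians as the main fit in every comparison, so it adds no separate check.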

Additional observations from a re-analysis of the deposited data

Results flagged for a closer look

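In groups of 4 mice, the highest or lowest value was set against the range of its group by Dixon's ratio, for the level of each gene tested and for the sums by role. This was done in 105 groups, of which 12 stood out. Chance marks about 1 in 20 for continuous values, a rate that does not hold where values tie at 0. For Cd6, Cd8b1 and Prf1 in AngII+LY, all mice but 1 were at 0. The ratio is then at its maximum whatever the remaining value. No explanation was tested. In Ctrl, replicate 2 was low for Cd5 (0 CPM), replicate 1 was high for the summed T cell co-receptors (9.56 CPM), and replicate 4 was low for the summed granule genes (1.63 CPM). In AngII, replicate 3 was low for Cd2 (1.46 CPM). Replicate 2 of AngII was low for Cd5 (0 CPM) and high for Klrd1 (1.66 CPM) and the summed NK receptors (1.78 CPM), the second of which contains the first. In AngII+LY, replicate 1 was high for Cd3g (0.947 CPM), replicate 2 for Cd8b1 (0.817 CPM), replicate 4 for Cd6 (0.400 CPM) and replicate 3 for Prf1 (0.0261 CPM, a single count). Replicate 3 of AngII+LY was low for Cd28 (0.366 CPM). The immunoglobulin level of AngII+LY replicate 1 did not pass this threshold on the log2 scale.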

How the results depend on the processing

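Among single lymphocyte genes, 2 of 602 values in AngII against Ctrl passed the threshold that the main test did not (Cd3g with limma, Tcf7 with DESeq2), so each of these tools called 1 gene. All values in the other comparisons (598, 602 and 602) stayed on the same side. The main test called no lymphocyte gene, so no direction of a called value could turn. In AngII against Ctrl, Cd3g kept its sign in 23 of 23 settings and Tcf7 in 24 of 24. Zap70 did so in 16 of 23 and Klrd1 in 17 of 23. In AngII+LY against AngII, Icos kept its sign in 16 of 23 settings.

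The number of lymphocyte genes at an unadjusted p under 0.05 moved more. In AngII against Ctrl (5) it was 1 with a minimum mean count of 100, where 7 genes were tested, and 3 to 6 when mice were left out. In AngII+LY against AngII (2) it was 0 with the GC correction, with limma and with the replicate block plus GC correction, 1 with a minimum mean count of 100, with only the 2 groups compared and with the replicate block, and 0 to 4 when mice were left out. In AngII+LY against Ctrl (3) it was 1 with a minimum mean count of 100 and 0 to 5 when mice were left out. In LY against Ctrl (2) it was 1 with limma, with the replicate block and with the block plus GC correction, 0 with a minimum mean count of 100, and 0 to 2 when mice were left out. Beyond the smaller number of genes or mice, the cause was not tested. The median log2 fold change of AngII against Ctrl ran from -0.90 to -0.16 when mice were left out, with -0.22 after GC correction, -0.40 with the block as well, and -0.42 with limma.

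Same-numbered mice deviated together little (correlations of -0.18 to 0.14 in 18 pairs, 1 of them over 0.1), so the numbers were not taken as pairs. With the replicate block, AngII against Ctrl again gave 5 genes and no call. The summed level was 36.4, 37.7, 35.4 and 36.1 CPM in Ctrl, LY, AngII and AngII+LY without Ighm and Jchain, against 88.9, 107, 79.0 and 131 CPM with them. When mice were left out, the latter stayed between 78.0 and 95.2 CPM in Ctrl and between 71.6 and 84.8 CPM in AngII. AngII+LY gave 85.3 CPM without replicate 1 and up to 150 CPM without another mouse. Of the 10 genes most like the CD3 genes, 7 were shared with a pseudocount of 0.01 and 4 with 1. Over all genes, where edgeR called none of AngII against Ctrl (4815 at an unadjusted p under 0.05), DESeq2 called 2648 and limma 206. In AngII+LY against AngII (4315) they called 2062 and 353, in AngII+LY against Ctrl (2112) 343 and 6, and in LY against Ctrl (266) 21 and 0. Detection is most open to depth for genes with few counts, among them Prf1, Ncr1, Gzmb and Klrb1c. In AngII replicate 2, the library with the most counts (73128220), Prf1 and Ncr1 had no count, Gzmb had 14 and Klrb1c 10. The part of depth in the values of these genes was not tested.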
